A study of Mus musculus with 8 samples.

Results

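The measurements below concern 10 genes, 8 chemokines and 2 chemokine receptors, among the 29955 genes listed for each bone marrow RNA-seq library. The members were chosen by gene symbol: the ligands Cxcl10, Cxcl2, Cxcl12, Ccl3, Ccl4, Ccl5, Ccl6 and Ccl9 and the receptors Cxcr4 and Ccr2. The choice was led by the difference of Cxcl10 between Ripk3-KO and WT LK cells, so that difference is given as a description with no test, and so are the other members' values in the same comparison.

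Chemokines are small secreted proteins that bind G protein-coupled receptors and direct the movement of leukocytes. In the marrow, CXCL12 made by stromal cells retains stem and progenitor cells through CXCR4, while CCR2 lets monocytes and some progenitors leave toward sites of inflammation. CXCL10 and CXCL2 are typical inducible chemokines, transcribed in response to NF-kB-activating signals such as TNF, and CXCL10 also in response to interferon. RIPK3 is a kinase of the TNF receptor pathway best known for necroptosis.

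The study compared gene expression between WT and Ripk3-KO mice in 2 marrow populations, with 2 libraries in each of 4 groups. LSK cells were sorted as Lin- Sca1+ Kit+, which includes the stem cells and multipotent progenitors. The study defines LK cells as Lin- Sca1- Kit+, and these are mostly committed myeloid and erythroid progenitors. The WT LSK and WT LK groups carried the genotype wild type and the Ripk3-KO LSK and Ripk3-KO LK groups a Ripk3 deletion present in every tissue (Ripk3-/-), all with the strain background labelled CD57BL6/J. The labels record no treatment, whereas the study's text places these cells a month after the last of a series of X-ray exposures in both genotypes. The sources thus differ on exposure, which was not tested here, and neither separates the 8 libraries by it. The age of the mice is not given in the sources used here. WT mice were purchased and the knockout mice were kept by the laboratory. Nothing in the labels says that the replicates came from separate mice, so p-values measure only the spread between these samples, which may be technical.

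The libraries held 9782166 to 16280811 reads over genes and 18254 to 20358 genes above 0. Ripk3 was at 162 and 168 in the WT LSK libraries and at 3.38 and 1.08 in the Ripk3-KO LSK libraries, and at 144 and 150 in WT LK against 16.2 and 10.6 in Ripk3-KO LK, in the deposited signal described below. The sort was visible in Ly6a, the transcript of Sca1: in CPM (reads scaled to a common library total), its level was 123 to 207 in LSK and 0.142 to 4.68 in LK. Kit was at 196 and 262 CPM in WT LSK against 411 and 311 in Ripk3-KO LSK. In LK it was at 289 and 267 CPM in WT against 373 and 368 in Ripk3-KO. Both Ripk3-KO libraries were thus above both WT libraries for Kit in each population. Each of the 4 WT libraries held 1589 to 4050 reads of Xist and 0 reads of 4 Y-linked genes, and each of the 4 Ripk3-KO libraries held 0 to 13 reads of Xist and 1026 to 1383 Y-linked reads. Genotype and sex therefore cannot be told apart in any comparison of Ripk3-KO with WT.

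Values are given as the deposited signal, which is CPM with a scaling factor (TMM) set separately within LSK and within LK. For comparisons of LSK with LK, the reads were recovered from the signal and rescaled together as CPM. Fold changes are differences of log2(value + 1), on which low genes show smaller folds than their values have. Genes were tested with limma where their mean reached 1, and a gene was called at an adjusted p under 0.05 over all genes tested. With 2 libraries a side, the smallest two-sided p of an exact permutation test is 0.333, so it was not used for pairs of groups. Where a library was left out, its group held 1 library, which the fit assumes to vary like the other groups. In these bulk samples, fewer cells of a type and less RNA per cell cannot be told apart.

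The promoters of 8 members had an entry in the RefSeq table (GRCm38.p6), and Ccl4 and Ccl5 had none. The 250 bases before the start of 4 genes are shown: Cxcl10 and Cxcl2, the members that were lower in both Ripk3-KO populations, and the neighbouring Ccl6 and Ccl9, which stood on opposite sides of WT in Ripk3-KO LSK. The starts are those of RefSeq. For Cxcl2 that start lies downstream of the one in GENCODE M21, from which gene positions are given here, so the end of its window falls within the gene as GENCODE places it. Each is written 5′ to 3′ on the strand of the gene, Cxcl10 at chr5:92348890-92349139 (minus strand), Cxcl2 at chr5:90903649-90903898 (plus strand), Ccl6 at chr11:83593088-83593337 and Ccl9 at chr11:83578637-83578886 (both minus strand). Capitals mark matches on either strand to GGG and CC with any 5 bases between them (NF-kB-like), GAAA and GAAA with any 2 bases between them (ISRE-like, the element bound by interferon-activated factors) and TGANTCA (AP-1-like).
Cxcl10: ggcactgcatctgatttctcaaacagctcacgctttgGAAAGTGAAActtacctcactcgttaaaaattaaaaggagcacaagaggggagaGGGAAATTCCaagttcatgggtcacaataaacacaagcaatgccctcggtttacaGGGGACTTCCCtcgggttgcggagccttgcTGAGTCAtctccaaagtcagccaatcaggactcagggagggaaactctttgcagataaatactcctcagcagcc
Cxcl2: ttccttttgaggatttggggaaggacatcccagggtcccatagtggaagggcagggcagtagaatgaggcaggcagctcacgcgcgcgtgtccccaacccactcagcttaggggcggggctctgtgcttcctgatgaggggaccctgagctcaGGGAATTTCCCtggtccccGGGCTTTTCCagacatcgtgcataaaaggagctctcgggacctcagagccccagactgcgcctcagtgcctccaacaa
Ccl6: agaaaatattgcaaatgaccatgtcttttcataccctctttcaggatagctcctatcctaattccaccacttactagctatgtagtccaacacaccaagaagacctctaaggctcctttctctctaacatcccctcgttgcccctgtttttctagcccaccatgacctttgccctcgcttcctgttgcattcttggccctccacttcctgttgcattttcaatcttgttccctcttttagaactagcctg
Ccl9: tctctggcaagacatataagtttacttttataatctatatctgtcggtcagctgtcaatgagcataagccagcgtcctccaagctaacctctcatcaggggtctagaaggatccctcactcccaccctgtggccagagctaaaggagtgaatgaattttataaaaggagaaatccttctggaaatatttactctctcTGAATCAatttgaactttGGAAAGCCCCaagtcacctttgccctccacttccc

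The Cxcl10 window held 3 NF-kB-like matches, of which GGGGACTTCC and GGGACTTCCC overlap, with 1 ISRE-like match (GAAAGTGAAA, starting 213 bases before the gene) and 1 AP-1-like match (TGAGTCA). The Cxcl2 window held 3 NF-kB-like matches, GGGAATTTCC and GGAATTTCCC overlapping and GGGCTTTTCC apart from them, and no match to the other motifs. The Ccl9 window held 1 NF-kB-like match (GGAAAGCCCC) and 1 AP-1-like match (TGAATCA), and none of the 3 patterns was found in the Ccl6 window. Of the windows of the other members, Cxcl12 had 1 NF-kB-like match and Ccl3, Cxcr4 and Ccr2 had 0 of any kind. The RefSeq start of Ccr2 also lies downstream of the one in GENCODE M21. Most of the Ccr2 window therefore falls within the gene as GENCODE places it. Among 32851 promoter windows of the same length in the table, 45.8% held the NF-kB-like pattern, 2.98% the ISRE-like and 6.75% the AP-1-like. Matches of letters are a description and were not linked to binding.

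Cxcl10, the ligand of CXCR3 on activated T and NK cells, lies on chromosome 5 (GRCm38 92346638 to 92348889, minus strand, protein coding). Its signal was 54.6 and 44.9 in the WT LSK libraries, 12.2 and 16.5 in Ripk3-KO LSK, 85.8 and 115 in WT LK, and 17.0 and 17.3 in Ripk3-KO LK. Both Ripk3-KO libraries lay below both WT libraries in each population. In LSK the mean fell from 49.7 ± 6.90 to 14.4 ± 3.05 (SD, n = 2 each), a log2 change of -1.73 (SE 0.31, limma adjusted p = 0.0034; edgeR on recovered reads, adjusted p = 0.0043). Cxcl10 was the single member called in LSK, where 2.16% of 16817 genes were called in either direction. In LK the mean was 100.3 ± 20.4 in WT and 17.2 ± 0.233 in Ripk3-KO, a log2 difference of -2.46 (SE 0.32), which is the value that led the choice of members and carries no test. The LSK call was not reached without WT LSK replicate 1 (log2 change -1.59, adjusted p = 0.0613), without Ripk3-KO LSK replicate 1 (-1.53, adjusted p = 0.0573) or with no mean-variance trend in limma (adjusted p = 0.0623); over 18 alternatives the adjusted p ran from 7.02e-07 to 0.0623 and the log2 change from -2.10 to -1.53. The gene Art3 overlaps Cxcl10 on the opposite strand, and its signal was 0.136 to 3.36 in the 8 libraries; the library kit kept strand, and the counting is not given in the sources used here.

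**Figure D1:**
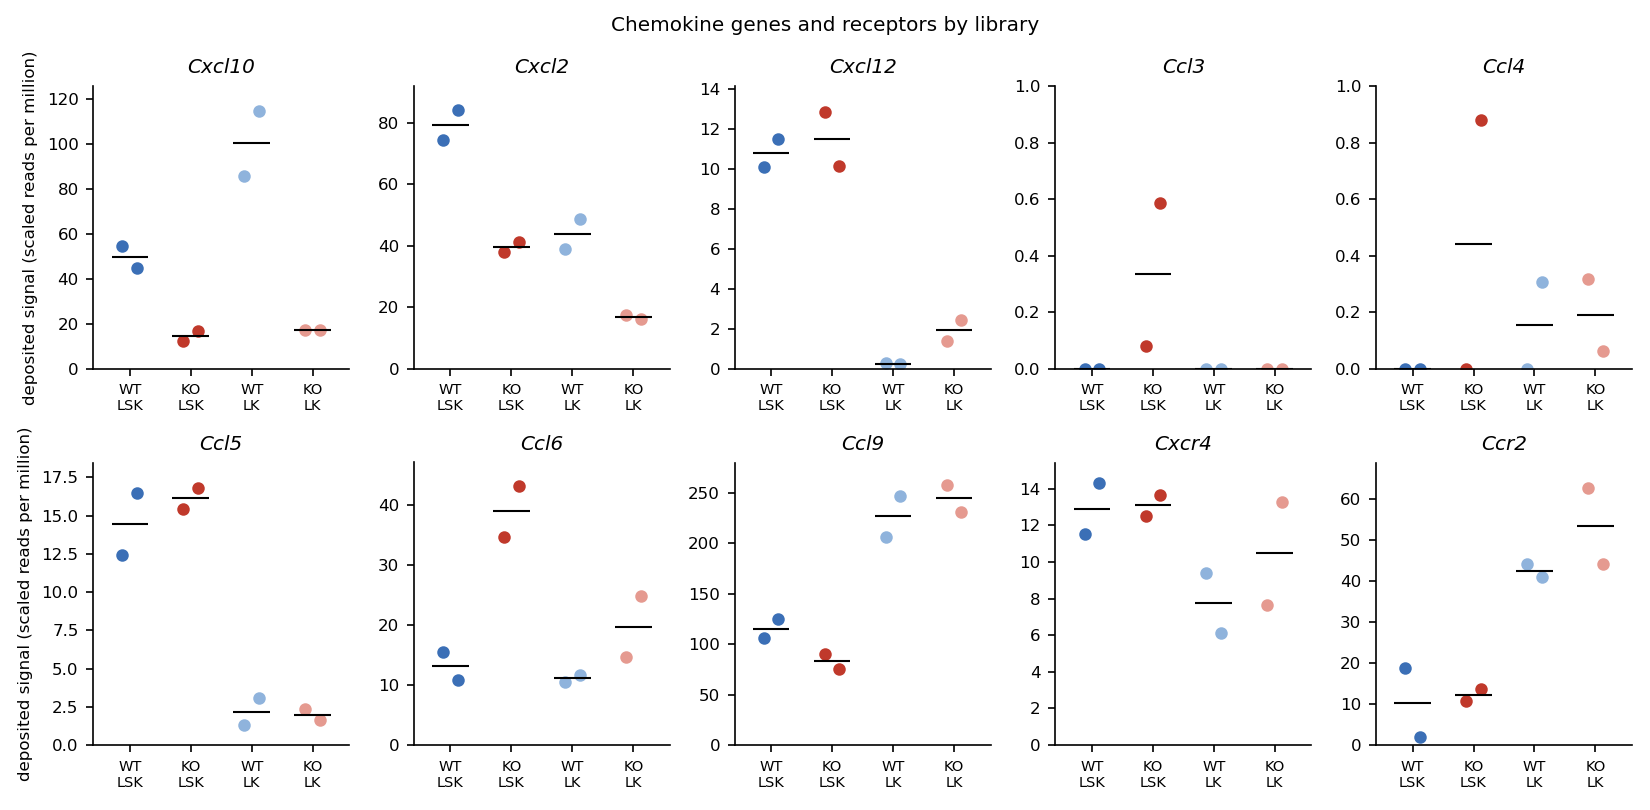
Deposited signal (TMM-scaled CPM, linear axes that start at 0 and differ between panels) of the 10 genes in each of the 8 libraries, with points for libraries and a bar for the mean of each group of 2 (KO stands for Ripk3-KO). Cxcl10 and Cxcl2 sit lower in both Ripk3-KO populations than in WT, with Cxcl10 at 12.2 to 17.3 in the Ripk3-KO libraries, while Cxcl12 and Ccl5 separate LSK from LK, and Ccl3 and Ccl4 stay below 1 throughout.

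Cxcl2, a neutrophil attractant that acts through CXCR2, lies on the same chromosome as Cxcl10 (GRCm38 chromosome 5, 90903871 to 90905938, plus strand). Its signal was 74.3 and 84.1 in WT LSK, 37.9 and 41.1 in Ripk3-KO LSK, 38.7 and 48.6 in WT LK, and 17.2 and 16.0 in Ripk3-KO LK. The Ripk3-KO libraries were below the WT libraries in each population, without overlap. In LSK the log2 difference was -0.99 (SE 0.29, limma adjusted p = 0.0799), which did not pass the threshold. Over 18 alternatives the adjusted p of Cxcl2 in LSK ran from 0.0129, with DESeq2, to 0.209, and the log2 difference from -1.21 to -0.90. In LK the log2 difference was -1.33 (SE 0.29, no test). Of the 50-base stretches of Cxcl2 transcripts, 5.84% also occur in transcripts of Cxcl3, whose signal was at most 1.21 in the 8 libraries.

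Cxcl12, the retention factor for CXCR4-bearing progenitors, was measured at 10.1 and 11.5 in WT LSK, 12.9 and 10.2 in Ripk3-KO LSK, 0.272 and 0.229 in WT LK, and 1.40 and 2.42 in Ripk3-KO LK. The 4 LSK libraries were all above the 4 LK libraries, and the genotypes overlapped within LSK. The LSK genotype difference was 0.08 (log2, SE 0.59, limma adjusted p = 0.962). In LK the values rest on 4 and 3 reads in the WT libraries and 22 and 39 reads in the Ripk3-KO libraries, and the log2 difference was 1.20 (SE 0.59, no test). That LK value was 2.47 with a pseudocount of 0.1 and 2.89 with edgeR on the recovered reads.

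The CC chemokines Ccl5, Ccl9, Ccl6, Ccl3 and Ccl4 lie in this order on chromosome 11 of GRCm38, between 83525778 and 83664683. Ccl6, a CC chemokine of myeloid cells, had a signal of 15.5 and 10.8 in WT LSK, 34.6 and 43.1 in Ripk3-KO LSK, 10.5 and 11.7 in WT LK, and 14.6 and 24.8 in Ripk3-KO LK. It was higher in both Ripk3-KO libraries than in both WT libraries in each population. The LSK difference was 1.51 on the log2 scale (SE 0.40), next to the threshold but not past it (limma adjusted p = 0.0552). It was past the threshold under 3 of 18 alternatives (DESeq2, adjusted p = 0.0208; quantile normalization, 0.0418; a minimum mean of 5, 0.0498), and the adjusted p reached 0.225 without Ripk3-KO LSK replicate 2. In LK the log2 difference was 0.74 (SE 0.41, no test). The transcript E230016K23Rik overlaps Ccl6 on the opposite strand, with a signal of 0 to 2.59.

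Ccl9, which binds CCR1 and is abundant in myeloid progenitors, had a signal of 106 and 125 in WT LSK, 90.6 and 75.5 in Ripk3-KO LSK, 206 and 247 in WT LK, and 257 and 231 in Ripk3-KO LK. In LSK both Ripk3-KO libraries lay below both WT libraries, by -0.47 on the log2 scale (SE 0.20, limma adjusted p = 0.224), which did not pass the threshold. In LK the genotypes overlapped, with a log2 difference of 0.11 (SE 0.20, no test).

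Ccl5, a T cell and monocyte attractant, was at 12.4 and 16.5 in WT LSK, 15.4 and 16.8 in Ripk3-KO LSK, 1.29 and 3.05 in WT LK, and 2.35 and 1.61 in Ripk3-KO LK. The genotypes overlapped in both populations, with log2 differences of 0.16 in LSK (SE 0.56, limma adjusted p = 0.912) and -0.04 in LK (SE 0.56, no test). Ccl3 and Ccl4, CC chemokines induced in inflammation, were close to absent from these libraries and were below the minimum for a test. Ccl3 had 1 and 6 reads in the Ripk3-KO LSK libraries and 0 reads in the other 6. Ccl4 had 9 reads in Ripk3-KO LSK replicate 2, 4 in WT LK replicate 2, 5 and 1 in Ripk3-KO LK, and 0 in the other 4 libraries. A count of 0 allows up to 3 reads in a library, by counting error only.

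Cxcr4, the CXCL12 receptor, was at 11.5 and 14.3 in WT LSK, 12.5 and 13.7 in Ripk3-KO LSK, 9.38 and 6.11 in WT LK, and 7.67 and 13.3 in Ripk3-KO LK. The genotypes overlapped in both populations, and the log2 difference was 0.03 in LSK (SE 0.48, limma adjusted p = 0.985) and 0.37 in LK (SE 0.49, no test).

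Ccr2, the receptor for CCL2 and CCL7, was at 18.7 and 1.86 in the WT LSK libraries, which rest on 188 and 18 reads. It was at 10.6 and 13.7 in Ripk3-KO LSK, 44.0 and 40.8 in WT LK, and 62.5 and 44.0 in Ripk3-KO LK. The LSK genotype difference of 0.80 (log2, SE 0.57, limma adjusted p = 0.484) was decided by which WT library was kept: it was 2.19 without WT LSK replicate 1 (adjusted p = 0.0327) and -0.59 without WT LSK replicate 2 (adjusted p = 0.463). In LK the log2 difference was 0.30 (SE 0.57, no test).

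**Figure D2:**
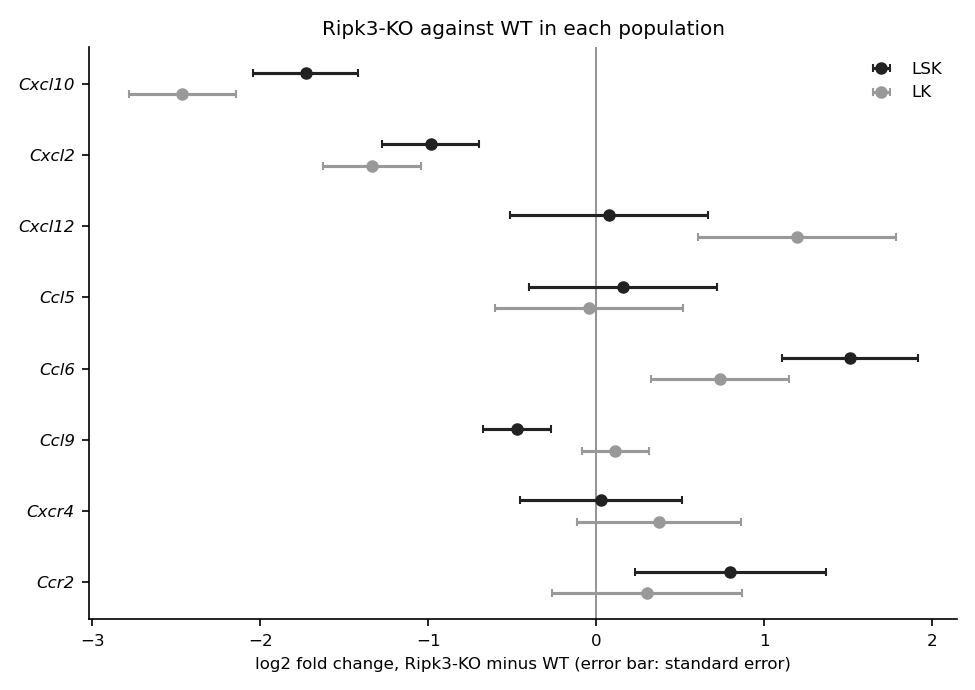
Difference between Ripk3-KO and WT on the log2(signal + 1) scale for the 8 genes with a mean of at least 1, in LSK (black) and in LK (grey), with bars of 1 standard error from limma. Cxcl10 and Cxcl2 lie left of 0 and Ccl6 right of 0 in both populations, and of the LSK values that of Cxcl10 (-1.73) passed the threshold; LK values carry no test.

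Of the 8 measurable members, 3 (Cxcl10, Cxcl2 and Ccl9) were lower and 1 (Ccl6) higher in LSK without overlap of the genotypes, where 23.2% of all genes tested were lower and 21.4% higher in that way. The LSK and LK genotype comparisons share no libraries, but they share the fit's estimate of spread and the confounding of genotype with sex. Whether they share mice is not known. With Cxcl10 left out, since its LK difference led the choice of members, 1 of the other 7 measurable members (Cxcl12) was at least 2-fold higher and 1 (Cxcl2) at least 2-fold lower in Ripk3-KO LK, where 3.19% of 13949 genes were at least 2-fold higher and 2.72% at least 2-fold lower. Cxcl2 lay below WT without overlap in both populations, and so did Cxcl10. That pattern was held by 4.89% of the 13746 genes measured in both, and nothing is read from these shares, because the LK comparison was used in the choice. The median log2 difference over the 8 measurable members was 0.05 in LSK and 0.21 in LK, beside -0.01 and 0.01 over all genes tested. A direct test of whether the genotype difference itself differed between LSK and LK includes the LK differences used in the choice, so it is not read for the members. Over all genes, limma called 57 of 15901 in that test (0.358%).

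Marker lists of other cells moved beside these values. The 9 neutrophil markers found summed to 630 to 709 CPM in WT LSK and 2089 to 2452 in Ripk3-KO LSK, and to 895 to 922 in WT LK and 1963 to 1967 in Ripk3-KO LK. Of these 9 genes, 7 were called higher in Ripk3-KO LSK and 5 in Ripk3-KO LK, the same direction as Ccl6. Of the defining markers, Ly6g was not matched by symbol, and Itgam (11.9 to 54.3 CPM) and S100a8 (203 to 760 CPM) were above 0 in every library, although the sort used antibodies to CD11b and Gr1 against lineage cells. The 10 monocyte and macrophage markers summed to 402 to 415 CPM in WT LSK and 338 to 368 in Ripk3-KO LSK, with 1 of 9 tested called lower (Cd14), and to 2844 to 3017 in WT LK and 2719 to 2974 in Ripk3-KO LK, with 0 of 9 called by limma or edgeR, 1 by DESeq2 (Cd14, adjusted p = 0.00787) and 1 at an unadjusted p under 0.05. The 9 stromal markers summed to 49.8 to 74.7 CPM in WT LSK and 28.1 to 37.3 in Ripk3-KO LSK, and to 32.2 to 35.7 in WT LK and 37.4 to 37.8 in Ripk3-KO LK, with 0 called by limma or edgeR in either population. DESeq2 called 1 stromal marker in LSK (Col1a2, adjusted p = 0.0344) and 0 in LK, and 2 of 6 in LSK and 0 of 5 in LK had an unadjusted p under 0.05. Of the T and NK, B and plasma, dendritic, endothelial, basophil and mast, erythroid and megakaryocyte lists, 0 genes were called by limma, edgeR or DESeq2 in either genotype comparison, and 5 of 40 in LSK and 4 of 33 in LK had an unadjusted p under 0.05. The sums of some of these lists stood apart between genotypes all the same. The B and plasma sum was 262 to 277 CPM in WT LSK and 322 to 358 in Ripk3-KO LSK. Of its genes, 1 (Igj) was higher in Ripk3-KO LSK without overlap and 2 (Ms4a1 and Pax5) were lower. Igj was at 191 to 192 CPM in WT LSK and 236 to 297 in Ripk3-KO LSK. Ms4a1 was at 7.37 to 9.59 CPM in WT LSK and 2.85 to 3.94 in Ripk3-KO LSK. The erythroid sum was 118 to 141 CPM in WT LSK and 116 to 117 in Ripk3-KO LSK. In the deposited signal, 1 of its 5 genes (Hbb-b1) was higher in Ripk3-KO LSK without overlap and 3 were lower. Hbb-b1 was at 6.89 to 10.3 CPM in WT LSK and 20.2 to 30.3 in Ripk3-KO LSK. In LK the erythroid sum was 1385 to 1675 CPM in WT and 1089 to 1144 in Ripk3-KO, and the basophil and mast sum was 286 to 322 in WT and 396 to 412 in Ripk3-KO. Of the 5 basophil and mast genes, 4 were higher in Ripk3-KO LK without overlap and 1 (Fcer1a) was lower. The part of these cells in the values of Ccl6, Cxcl10 and Cxcl2 was not tested. The sort list (Kit, Ly6a and Ptprc) summed to 511 to 600 CPM in WT LSK and 804 to 829 in Ripk3-KO LSK. In LK it summed to 414 to 466 CPM in WT and 571 to 598 in Ripk3-KO. Of its 3 genes, 0 were called by limma or edgeR in either population, and DESeq2 called 1 in LSK and 0 in LK. An unadjusted p under 0.05 was held by 2 of the 3 in LSK and 1 in LK.

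**Figure D3:**
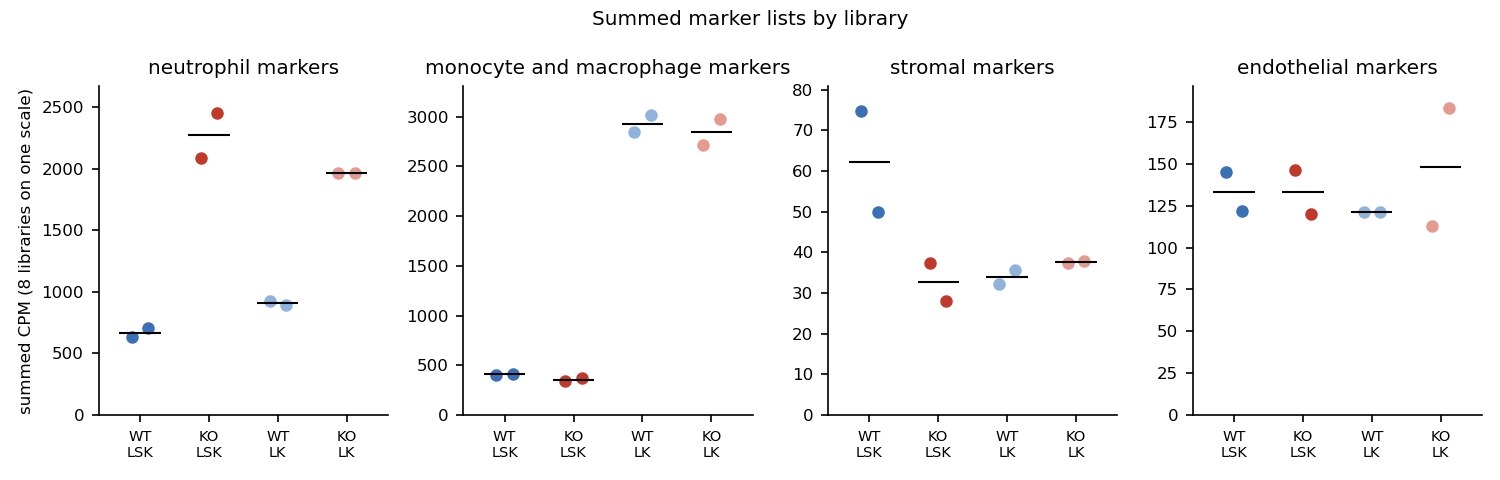
Summed CPM, scaled over all 8 libraries, of the neutrophil, monocyte and macrophage, stromal and endothelial marker lists, with a point for each library and a bar for each group mean (linear axes from 0 that differ between panels). The neutrophil sum stands at 1963 to 2452 in the 4 Ripk3-KO libraries and at 630 to 922 in the 4 WT libraries, and the monocyte sum separates LK from LSK.

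Levels of different genes were compared as CPM per kb of annotated exon (GENCODE M21), with both libraries of a group as the spread. The length joins all annotated exons of a gene, and the annotation used for counting is not known. Error in length is not part of that spread and could change the order. In WT LSK, Cxcl2 (33.6) and Ccl9 (33.2) came first and overlapped, followed without overlap by Cxcl10 (19.4) and Ccl5 (13.2). Ccl6 (6.42) and Cxcr4 (6.27) overlapped in WT LSK, and so did Ccr2 (1.33) and Cxcl12 (1.16). In Ripk3-KO LSK, Ccl9 (24.0) came first, followed by Ccl6 (19.1) and Cxcl2 (16.8), which overlapped, then by Ccl5 (14.8), and Cxcl10 (5.61) overlapped Cxcr4 (6.39) at rank 6. In WT LK the order was led by Ccl9 (84.2), Cxcl10 (50.5) and Cxcl2 (23.9), none of which overlapped its neighbour. In Ripk3-KO LK, Ccl9 (91.4) stood alone and Ccl6 (12.5), Cxcl2 (9.18), Ccr2 (8.98) and Cxcl10 (8.69) followed, each overlapping the next. Cxcl10 stood at rank 3 in WT LSK and rank 2 in WT LK, and at rank 6 in Ripk3-KO LSK and rank 5 in Ripk3-KO LK.

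**Figure D4:**
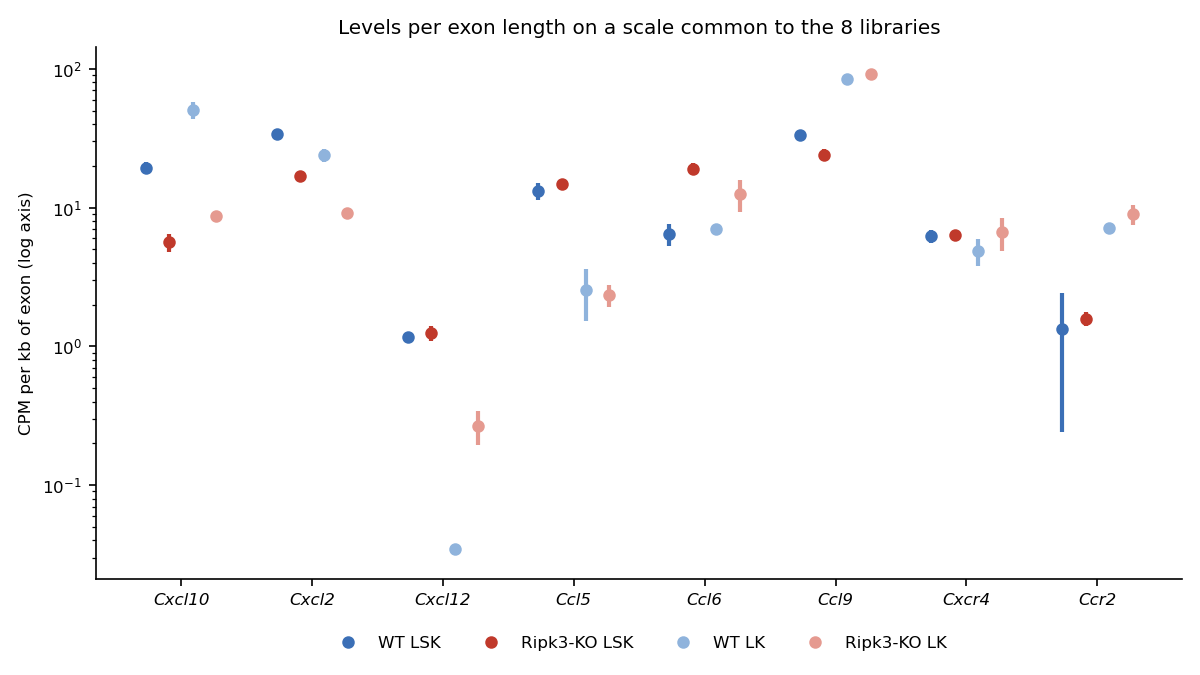
CPM per kb of exon (log axis) of the 8 measurable genes in the 4 groups, scaled over all 8 libraries, with the point at the mean and the line from the lower to the higher of the 2 libraries. Ccl9 is highest in LK at 84.2 and 91.4, Cxcl12 is at 0.0347 in WT LK against 1.16 in WT LSK, and the wide line of Ccr2 in WT LSK runs from 0.242 to 2.42.

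The next comparison asked how the members' levels differ between LSK and LK. With both genotypes together (4 LSK against 4 LK libraries), 5 of the 7 members open to a test were called, 3 higher and 2 lower in LSK, where 34.0% of 15757 genes were called in either direction, 13.7% higher and 20.2% lower. Cxcl10 was left out of this count, because its LK values had been used. Of the 7, 2 were higher and 2 lower in LSK without overlap of the populations, beside 11.3% and 16.7% of all genes. Within WT 4 of the 7 were called, beside 23.9% of 15950 genes, and within Ripk3-KO 5 of the 7, beside 20.2% of 15237 genes.

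Cxcl12 was higher in LSK by 2.43 on the log2(CPM + 1) scale (SE 0.42, limma adjusted p = 0.000101), with 8.89 to 11.4 CPM in the LSK libraries and 0.258 to 2.77 in the LK libraries. Within WT the difference was 3.03 (SE 0.60, adjusted p = 0.000877) and within Ripk3-KO 1.83 (SE 0.60, adjusted p = 0.0329), the latter not called with edgeR (adjusted p = 0.0507) or without any 1 of the 4 Ripk3-KO libraries (adjusted p = 0.0759 to 0.189). Ccl5 was higher in LSK by 2.13 (SE 0.40, limma adjusted p = 0.000239), with 10.9 to 14.7 CPM in LSK and 1.47 to 3.44 in LK. Its difference was 2.03 within WT (adjusted p = 0.0129) and 2.23 within Ripk3-KO (adjusted p = 0.00653). The WT call of Ccl5 was not reached without WT LSK replicate 2 (adjusted p = 0.0807) or WT LK replicate 1 (adjusted p = 0.148), nor the Ripk3-KO call without Ripk3-KO LK replicate 2 (adjusted p = 0.0715). For both genes every LSK library was above every LK library. The stromal marker Lepr was at 3.94 to 8.54 CPM in LSK and 1.01 to 3.77 in LK, while Pdgfrb was at 10.2 to 21.4 and 20.0 to 25.2. Of the 9 stromal markers, 2 (Lepr and Dcn) had every LSK library above every LK library and 0 had the reverse. Of 6 stromal markers tested, 0 were called between the populations by limma, edgeR or DESeq2, with 2 at an unadjusted p under 0.05. Of the 11 T and NK markers tested, 2 were called higher and 2 lower in LSK by limma. edgeR called 5 and DESeq2 6, and 7 had an unadjusted p under 0.05. Of the 12 found, 3 (Cd3e, Cd3g and Klrb1c) had every LSK library above every LK library and 2 (Nkg7 and Gzmb) had the reverse. Of the 5 endothelial markers tested, limma called 2 higher and 1 lower in LSK. The part of such cells in the Cxcl12 and Ccl5 values was not tested.

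Ccl9 and Ccr2 were lower in LSK. Ccl9 was at 66.1 to 110 CPM in LSK and 234 to 292 in LK, a difference of -1.63 (SE 0.14, limma adjusted p = 1.01e-08), with -1.33 within WT (adjusted p = 5.97e-05) and -1.92 within Ripk3-KO (adjusted p = 3.41e-07). Ccr2 was at 1.64 to 16.4 CPM in LSK and 46.1 to 71.0 in LK, a difference of -2.62 (SE 0.39, limma adjusted p = 1.58e-05). Within WT the Ccr2 difference was -2.86 (adjusted p = 0.000753; DESeq2, 0.0741) and within Ripk3-KO -2.39 (adjusted p = 0.00314; DESeq2, 0.0662), the latter also not called without Ripk3-KO LSK replicate 1 (adjusted p = 0.0561) or Ripk3-KO LK replicate 1 (adjusted p = 0.0526). All 4 LSK libraries were below all 4 LK libraries for both genes. The Ccr2 difference was -3.30 without WT LSK replicate 1 and -1.92 without WT LSK replicate 2, and it was called in both cases (adjusted p = 1.92e-07 and 3.75e-05). Beside them, 7 of the 9 monocyte and macrophage markers tested were lower in LSK and 0 higher, and the list summed to 338 to 415 CPM in LSK and 2719 to 3017 in LK. The first 3 markers of the list, Csf1r, Adgre1 (listed as Emr1) and Cd68, were above 0 in all libraries, while Fcgr1 was at 0 in WT LSK replicate 1 and WT LK replicate 2 and at most 1.70 CPM elsewhere. Csf1r was at 9.16 to 31.1 CPM in LSK and 141 to 175 in LK. Their part in the Ccl9 and Ccr2 values was not tested.

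Cxcl2 was higher in LSK by 0.66 (SE 0.21, limma adjusted p = 0.0162), although the groups overlapped, since the Ripk3-KO LSK libraries (33.5 and 35.9 CPM) were below the WT LK libraries (44.1 and 54.9 CPM). The call was not reached without WT LK replicate 1 (0.59, adjusted p = 0.0774) or without Ripk3-KO LK replicate 2 (0.64, adjusted p = 0.0542). Within each genotype the LSK libraries were above the LK libraries, with a difference of 0.49 in WT (adjusted p = 0.222) and 0.84 in Ripk3-KO (adjusted p = 0.0454). The latter was not called without any 1 of the 4 Ripk3-KO libraries or either WT LK library (adjusted p = 0.0557 to 0.207). Ccl6 and Cxcr4 differed by 0.24 (SE 0.29, adjusted p = 0.534) and 0.18 (SE 0.34, adjusted p = 0.720) and their populations overlapped. Cxcl10, described only, had a log2 difference of -0.98 (SE 0.22), at 39.4 to 47.9 CPM in WT LSK against 97.8 to 129 in WT LK, and 10.8 to 14.5 in Ripk3-KO LSK against 19.3 to 19.9 in Ripk3-KO LK.

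**Figure D5:**
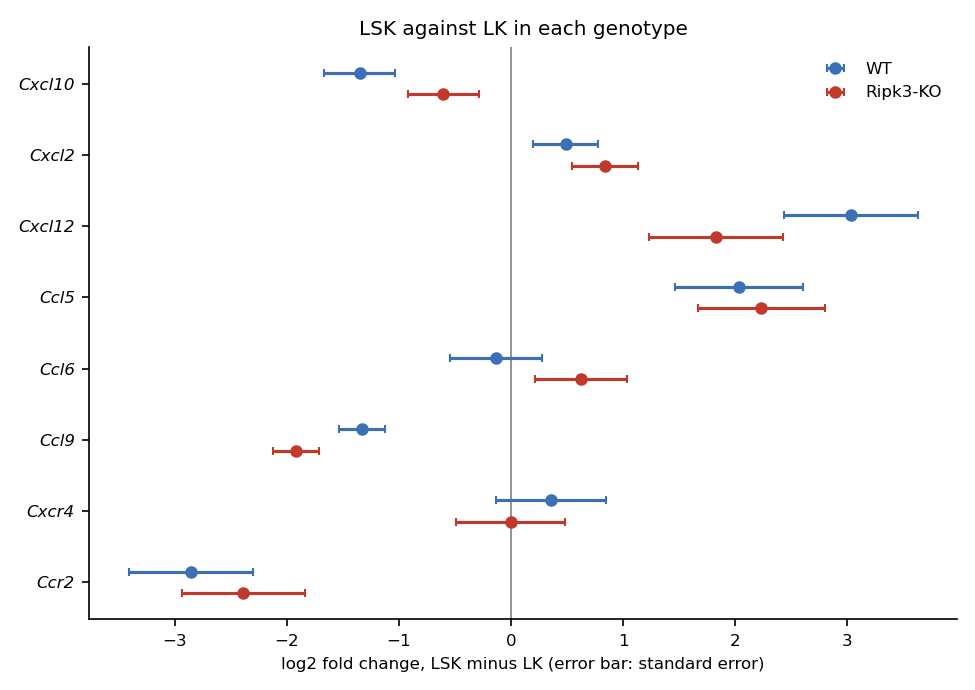
Difference between LSK and LK on the log2(CPM + 1) scale for the 8 measurable genes, within WT (blue) and within Ripk3-KO (red), with bars of 1 standard error from limma. Cxcl12 and Ccl5 lie right of 0 and Ccl9 and Ccr2 left of 0 in both genotypes, with Cxcl12 at 3.03 in WT and 1.83 in Ripk3-KO; Cxcl10 carries no test.

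The other chemokine family genes were sparser. Of 54 family genes outside the 10, 28 reached the minimum in LSK and 1 was called between genotypes by limma, where 2.16% of all genes were called. Of the 28, 10 had an unadjusted p under 0.05, 0 were called by edgeR and 2 by DESeq2, Ccrl2 and the receptor gene Cxcr6 (limma log2 difference 2.20, adjusted p = 0.0627; DESeq2, adjusted p = 0.0483). The gene called by limma was the atypical receptor gene Ccrl2, whose product binds chemerin. Ccrl2 was at 109 and 158 in WT LSK, 49.9 and 71.2 in Ripk3-KO LSK, 52.9 and 62.4 in WT LK, and 33.1 and 20.1 in Ripk3-KO LK. Its log2 difference was -1.12 in LSK (SE 0.29, limma adjusted p = 0.0481; edgeR, adjusted p = 0.0823) and -1.12 in LK (SE 0.29, limma adjusted p = 0.118), and the LSK call was lost whichever of the 8 libraries was left out (adjusted p = 0.0568 to 0.250). In LK 20 of the 54 reached the minimum and 0 were called by limma or edgeR, with 1 at an unadjusted p under 0.05 and 1 by DESeq2 (Ccrl2), where limma called 0.473% of 13949 genes.

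Between the populations, 24 of the 54 reached the minimum and 10 were called, 7 higher and 3 lower in LSK, beside 13.7% and 20.2% of all genes. Higher in LSK were the receptors Ccr9 (2.53 on the log2 scale), Cxcr5 (1.47), Cxcr6 (1.38), Cxcr3 (1.34) and Ccrl2 (0.81) and the ligands Cxcl9 (1.57) and Cx3cl1 (1.56). Lower in LSK were the receptors Cx3cr1 (-2.31) and Cxcr2 (-2.03) and the platelet chemokine Pf4 (-0.69). The calls of 4 of these depended on single libraries. Cxcr3 was not called without WT LSK replicate 1 or 2, Ripk3-KO LSK replicate 1, WT LK replicate 2 or Ripk3-KO LK replicate 2 (adjusted p up to 0.135), with edgeR (0.124) or with DESeq2 (0.0606), nor Cxcr5 without WT LSK replicate 1, WT LK replicate 1 or Ripk3-KO LK replicate 2 (up to 0.0968). Cxcr6 was not called without Ripk3-KO LSK replicate 2 or Ripk3-KO LK replicate 2 (adjusted p up to 0.0712), nor Cx3cl1 without WT LSK replicate 1, Ripk3-KO LSK replicate 1 or WT LK replicate 2 (up to 0.0950).

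The receptors and ligands that pair with the members were mostly at low levels. Cxcr3, the CXCL10 receptor, was at 2.05 to 5.06 in LSK and 0 to 1.63 in LK. Cxcr2, the CXCL2 receptor, was at 0.482 to 3.48 in LSK and 3.74 to 13.3 in LK. Ccr1, for CCL9, was at 0.373 to 6.40. Ackr3, another CXCL12 receptor, listed as Cxcr7, was at 0.272 to 6.36. Of the CCR2 ligands, Ccl2 was at 11.9 to 15.2 in LSK and 2.55 to 7.61 in LK, Ccl7 was at most 1.37, and Ccl12 was at 0 in all 8 libraries. Between the genotypes, 0 of the 5 partners tested in LSK and 0 of the 4 tested in LK were called by limma, edgeR or DESeq2, or had an unadjusted p under 0.05.

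Genes that act below chemokine receptors were counted beside all genes tested, of which limma called 2.16% in LSK and 0.473% in LK between genotypes. Of 33 signaling genes (G proteins, RGS proteins, arrestins, kinases and effectors), 1 was called in LSK, the G protein gene Gnai3 (0.81, limma adjusted p = 0.0184), and of 32 tested 1 was called in LK, the small GTPase gene Rac1 (-1.80, limma adjusted p = 0.0183; DESeq2, 0.0805). The adjusted p was 0.152 for Gnai3 without Ripk3-KO LSK replicate 2 and 0.741 for Rac1 without WT LK replicate 1, where the Rac1 difference was -0.81. Of 20 homing and retention genes tested, 0 were called in LSK by limma or edgeR (5 at an unadjusted p under 0.05, 1 by DESeq2) and 1 in LK by limma, the endothelial adhesion gene Esam (1.66, limma adjusted p = 0.0364). Of the 30 genes that act in chemokine induction, 2 were lower in LSK, the receptor gene Tlr2 (-1.70, limma adjusted p = 0.0395; edgeR, 0.0871) and the NF-kB inhibitor gene Nfkbia (-1.16, limma adjusted p = 4.13e-05). In LK 2 were lower, Nfkbia (-1.60, limma adjusted p = 7.39e-07) and the interferon regulatory factor gene Irf1 (-0.74, limma adjusted p = 0.0450; edgeR, 0.0833). DESeq2 called 3 signaling genes in LSK and 1 in LK, and 2 induction genes in LSK and 4 in LK. An unadjusted p under 0.05 was held by 8 signaling genes in LSK and 5 in LK, and by 4 and 5 induction genes. The adjusted p was 0.326 for Esam without Ripk3-KO LK replicate 2, 0.207 for Tlr2 without Ripk3-KO LSK replicate 1 and 0.539 for Irf1 without Ripk3-KO LK replicate 1. Nfkbia was called whichever library was left out, in both populations. Between the populations, where 13.7% of all genes were called higher and 20.2% lower in LSK, 7 of 33 signaling genes were higher and 7 lower, led by Rgs1 (2.17), Rgs3 (1.87), Rgs2 (1.33) and Grk5 (1.26). Grk5 was not called with edgeR (adjusted p = 0.0808), and its adjusted p was 0.0936 to 0.184 without Ripk3-KO LSK replicate 2, either WT LK library or Ripk3-KO LK replicate 2. Of the 20 homing genes 7 were higher and 8 lower, led by Esam (4.40), Ctsg (-3.31), Elane (-3.25) and Robo4 (2.69), and of the 30 induction genes 8 were higher and 5 lower, led by Irf8 (-2.34), Irf7 (1.90), Ifngr1 (-1.80) and Relb (1.74).

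The genes whose pattern was most like that of Cxcl10 were sought among 10699 genes with a mean of at least 5 CPM, by Pearson's r of log2(CPM + 1) over the 8 libraries, which share genotype and population structure. The 5 highest were Psmb5 (r = 0.947), Usp3 (0.942), Wdr45l (0.932), Lmna (0.931) and Gdf3 (0.929). Of 3 other genes looked up, Nfkbia stood at rank 14 (r = 0.899), Ccrl2 at rank 1859 (r = 0.451) and Irf1 at rank 3552 (r = 0.264). Cxcl2 stood at rank 969 (r = 0.580). Ccl6 had the lowest r among the members (-0.774). These are descriptions over 8 libraries in 4 groups, with no test.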

How the data were processed

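Total RNA of sorted marrow cells was sequenced from stranded mRNA libraries, 1 per sample. The submitters' processing notes name TopHat and the mm9 build; the counter and annotation are not given in the sources used here. The deposited values are headed FPKM but are a signal: each column holds whole multiples (within 0.01) of 1 step per library, that is, CPM scaled by TMM within LSK and within LK, as the authors made them. Gene length had not been divided out. Reads were recovered by dividing by the step. Because the heading said FPKM, the log-scale test chosen for it was kept.

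Groups came from the sample titles. limma 3.58.1 (R 4.3.3; lmFit, eBayes with trend) was run on log2(value + 1) with 4 group means over 8 libraries, genes with a mean of at least 1, and Benjamini-Hochberg adjustment over all tested genes. LSK and LK were compared on CPM from recovered reads with TMM factors over 8 libraries. Alternatives were edgeR 4.0.16 (quasi-likelihood) and DESeq2 1.42.0 on the recovered reads, a pseudocount of 0.1, no filter, a minimum mean of 5, quantile, median and DESeq2 scaling, no trend, separate fits, a replicate block and leaving out each library. The fit was tested on simulated data.

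The members and lists were chosen with earlier results of these data known. Named are the 10 members, their partners, family genes with a mean of at least 5 or called that the text turns on, at most 4 called genes per list and comparison by size, and the 5 genes most like Cxcl10. GRCm38 positions, exon lengths and transcripts (50-base stretches) came from GENCODE M21 and promoters from RefSeq; no mm9 coordinate was used. 2 of the 76 marker genes (Ly6g and Hba-a1) and Ccl27b were not matched by symbol. 1 receptor gene is not reported here.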

Additional observations from a re-analysis of the deposited data

How the results depend on the processing

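The number of members called in LSK between genotypes (1) was 2 with a minimum mean of 5 or median-centred libraries, 3 with DESeq2 or quantile normalization, 0 with no trend, and 0 to 1 when single libraries were left out. It was 0 without Ripk3-KO LSK replicate 1, and without WT LSK replicate 1 the 1 member past the threshold was Ccr2 in place of Cxcl10, with the lone WT LSK library assumed to vary like the other groups. Within Ripk3-KO, the number called between LSK and LK (5) was 2 with no filter, 3 with quantile normalization, no trend or the replicate block, and 2 to 5 when single libraries were left out. The numbers within WT and over both genotypes and the count of members at least 2-fold apart in LK stayed within 1.5 times. No member that was called changed direction under any alternative run, while the uncalled Ccr2 difference in LSK did (-0.59 without WT LSK replicate 2). Nfkbia, not called between the populations, was higher in LSK by 0.36 with quantile normalization and 0.35 with the deposited scaling (limma adjusted p = 0.00257 and 0.0105).

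Counts over all genes moved more. The 363 genes called in LSK were 209 with edgeR, 611 with DESeq2, 198 with no filter, 120 with no trend, 195 with separate fits and 99 to 262 without single libraries. The 66 in LK were 52 with edgeR, 173 with DESeq2, 9 with no filter, 3 with no trend, 33 with quantile normalization, 125 with separate fits and 13 to 101 without single libraries. Between the populations 5351 genes were called, 3717 to 5687 under the other settings, and for the difference of effects 57, against 154 with DESeq2, 3 with no filter, 2 with no trend and 17 to 90 without single libraries. Within WT the 3814 genes were 1924 with quantile normalization, 1998 with no trend and 1501 to 4214 without single libraries, and within Ripk3-KO the 3072 were 1494 with no trend and 1487 to 3163 without single libraries. The causes were not tested.

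Same-numbered libraries did not deviate together (correlations of -0.149 to 0.0538), so the numbers gave no sign of pairing. The lowest value was that of Ripk3-KO LK with Ripk3-KO LSK. Low correlations cannot exclude that LSK and LK cells came from the same mice, and the main fit treats the samples as unpaired. The replicate block called 317 genes in LSK, 64 in LK and 4817 between populations, and 3 members within Ripk3-KO. A crossed pairing of the Ripk3-KO numbers, added after seeing the data, called 5687 genes between the populations and 3380 within Ripk3-KO.

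Pairs of libraries limit every value here, and counts of under 10 reads (Ccl3, Ccl4, and Cxcl12 in WT LK) limit those genes.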
